A study of Mus musculus with 6 samples.

Results

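The ureter is a tube of urothelium wrapped in mesenchyme, and before birth part of that mesenchyme becomes the smooth muscle that moves urine. The 9 genes described here act in the mesenchyme. They were taken by symbol from the table of 24532 mouse genes: Tbx18, Tshz3, Myocd, Tbx2, Tbx3, Ptch1, Gli1, Foxf1 and Sox9, and each symbol had 1 row. Their levels were read in kidney and ureter of newborn Ahnak KO and WT mice.

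RNA was sequenced in bulk from tissues taken at PN1, the first postnatal day, in 6 libraries. Of these, 2 were from Ahnak KO kidney, 2 from WT kidney, 1 from Ahnak KO ureter and 1 from WT ureter. The KO allele had an exon of Ahnak disrupted and was carried in all tissues, so no single cell type of the ureter was targeted. Ahnak encodes a very large scaffold protein. The methods state 2 biological replicates, although the ureter had 1 library of each genotype here. They give only a range for how many kidneys or ureters were pooled, so it is not known whether a library came from 1 animal. P-values then measure the spread between these libraries, which may be partly technical. The study compared genotypes within a tissue, and the comparison of ureter with kidney was added here.

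In the ureter wall, urothelial cells release the ligand sonic hedgehog, which binds the receptor Ptch1 on the neighbouring mesenchyme. Binding frees Smo to signal, and the Gli transcription factors then switch on target genes. Ptch1 and Gli1 are themselves targets, so their transcripts are a common readout of pathway activity, and Foxf1 is another target in mesenchyme around endodermal and urinary epithelia. Tbx18 marks the ureteric mesenchyme from its start. Tbx2 and Tbx3 encode T-box repressors that keep ureteric mesenchyme growing and in its fate. Tshz3 and Myocd act later, when mesenchymal cells become smooth muscle, and Sox9 is present in mesenchyme before that step as well as in epithelium and cartilage.

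The libraries held between 36410246 and 66095616 counts, the fewest in the KO ureter. Values are given as CPM, reads scaled to a common library size with edgeR's TMM factors (which correct for a few abundant genes taking up reads), and 3 counts stood for 0.0454 to 0.0824 CPM before TMM. Such limits cover counting error only. Ahnak itself was counted in all libraries, at 139 and 130.4 CPM in KO kidneys, 183 and 189 CPM in WT kidneys, 635 CPM in KO ureter and 727 CPM in WT ureter. KO values were below WT values in both tissues. In kidney the log2 fold change was -0.47, with an unadjusted p of 0.00265 and an adjusted p of 0.9999 in edgeR's quasi-likelihood test. Counts cover the whole gene and not the disrupted exon alone. The tissue labels held against markers fixed for this check: summed over 8 urothelial genes the ureters had 6950 and 7832 CPM and the kidneys 60.2 to 67.2 CPM, and of 8 kidney tubule genes 6 were at 0 in both ureters. Sex also varied: 4 Y-linked genes had no counts in KO kidney replicate 1, where Xist stood at 2916 CPM, and 8415 to 18055 counts in each of the other 5 libraries. In the KO ureter 8.06% of the counts were on the ribosomal RNA gene Rn45s, against 0.496% to 0.632% elsewhere. The part of sex in the results was not tested, and that of the ribosomal counts was looked at only through the scalings given beside each result.

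Positions are on GRCm38.p6. Tbx18 lies on chr9:87702800-87731260, Tshz3 on chr7:36698118-36773553 and Ptch1 on chr13:63508328-63573460. The RefSeq promoter table of that build held these 3 of the 9 genes. The 250 bases before the listed start are shown for these 3 because no other promoter of the 9 genes was held. Tbx18 and Tshz3 were among the genes higher in ureter, while Ptch1, the pathway readout, was close to level between the tissues. They were searched on both strands for a GLI motif (TGGGTGGTC), a T-box motif (AGGTGTGA), SOX motifs (AACAATG or AACAAAG), a FOX motif (GTAAACA) and the CArG box bound by the partner of Myocd. None was found, so no base is in capitals. Among 32851 promoters of the same length these motifs occurred in 0.225%, 1.12%, 8.12%, 3.17% and 1.47%.
Tbx18, chr9:87731261-87731510, minus strand: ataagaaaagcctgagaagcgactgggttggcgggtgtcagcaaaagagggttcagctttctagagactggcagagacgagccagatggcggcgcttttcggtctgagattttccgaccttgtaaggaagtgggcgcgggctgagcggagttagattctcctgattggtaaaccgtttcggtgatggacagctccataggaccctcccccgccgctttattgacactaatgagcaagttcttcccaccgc
Tshz3, chr7:36697868-36698117, plus strand: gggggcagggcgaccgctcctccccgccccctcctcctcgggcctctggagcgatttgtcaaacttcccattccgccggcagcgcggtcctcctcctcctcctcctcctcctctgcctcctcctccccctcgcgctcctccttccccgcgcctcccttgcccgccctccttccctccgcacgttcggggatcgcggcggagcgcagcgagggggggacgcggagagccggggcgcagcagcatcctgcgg
Ptch1, chr13:63565736-63565985, minus strand: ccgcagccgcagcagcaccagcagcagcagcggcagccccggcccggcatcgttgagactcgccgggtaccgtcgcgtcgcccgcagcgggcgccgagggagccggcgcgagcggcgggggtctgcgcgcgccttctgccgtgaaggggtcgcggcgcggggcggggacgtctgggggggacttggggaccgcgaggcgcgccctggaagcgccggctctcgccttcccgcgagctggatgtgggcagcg
These promoters differ in their content of G and C. Those bases made up 54% of the Tbx18 sequence, which held 15 CG pairs. The Tshz3 sequence was 74% G and C with 27 CG pairs, and the Ptch1 sequence 78.4% with 41. The medians over all promoters were 52.4% and 6 pairs. The start used for Ptch1 is inside the gene's full span, so other starts of this gene are not shown.

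The clearest difference in these genes was between tissues. Of the 9 genes, 6 were higher in ureter than in kidney and none was lower at an adjusted p under 0.05 (edgeR's quasi-likelihood test, genotype as a second term, 16873 genes tested). Foxf1, Tbx18 and Myocd differed by 23.0-fold or more, Tbx3, Tshz3 and Tbx2 by 1.52-fold to 2.69-fold. Ptch1, Gli1 and Sox9 did not pass. Over all genes tested, 21.4% were called higher and 23.7% lower. The median log2 fold change was 1.42 over the 9 genes and -0.08 over all genes. In bulk tissue, a larger share of mesenchymal cells and more RNA per cell cannot be told apart.

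**Figure D1:**
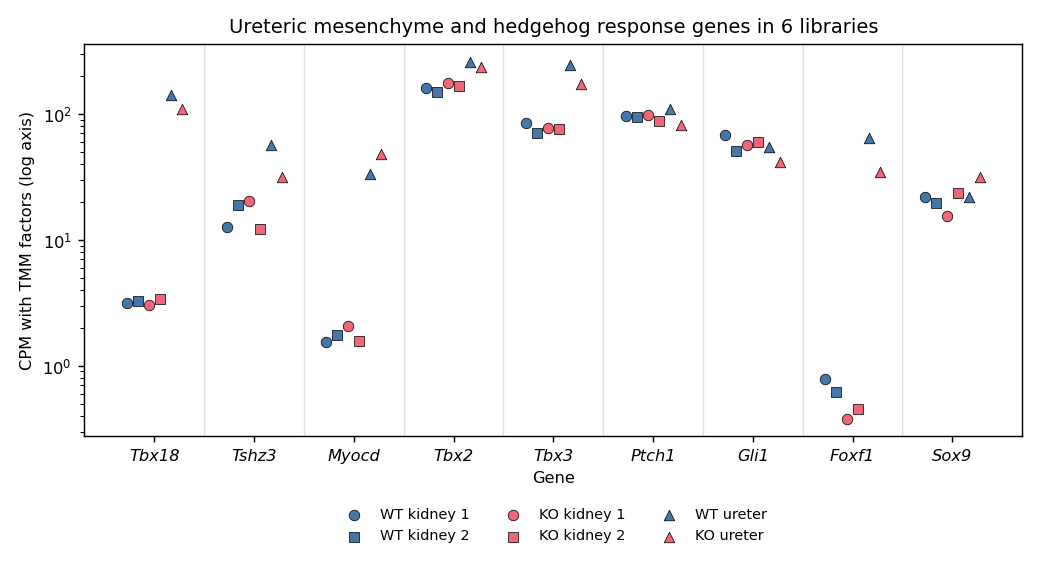
CPM with TMM factors (log axis) of the 9 genes in each of the 6 libraries; circles and squares are kidney replicates 1 and 2, triangles are ureters, blue is WT and red is Ahnak KO. Both ureters lie above all 4 kidneys for Tbx18, Tshz3, Myocd, Tbx2, Tbx3 and Foxf1.

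Among the genes that mark the mesenchyme, Tbx18 encodes a T-box factor of the early ureteric mesenchyme. It stood at 3.01 and 3.40 CPM in KO kidneys, 3.12 and 3.27 CPM in WT kidneys, 109.8 CPM in KO ureter and 141 CPM in WT ureter. Every ureter value was far above every kidney value, and the kidneys spread by only 1.13-fold. Ureter exceeded kidney by 5.29 on the log2 scale, with a standard error of 0.131 and a 95% interval from 4.97 to 5.60 (edgeR, adjusted p = 5.31e-06). An unnamed transcript on the opposite strand, D030062O11Rik, covers 20.6% of the exonic bases of Tbx18 in the GENCODE M21 annotation, and whether counting used strand is not stated.

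Foxf1 (chr8:121084386-121088154) encodes a forkhead factor of mesenchyme that receives hedgehog signals. It had 23 and 27 counts in KO kidneys, 56 and 38 in WT kidneys, 1022 in KO ureter and 3328 in WT ureter. In CPM these were 0.3803, 0.455, 0.787, 0.623, 34.4 and 64.6. Kidney counts were few, and both ureters were far above all kidneys. Ureter exceeded kidney by 6.44 on the log2 scale (standard error 0.180, adjusted p = 6.25e-06 in edgeR), the largest difference of the 9.

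Tbx2 (chr11:85832615-85841948) and Tbx3 (chr5:119670534-119684724) encode closely related T-box repressors. Tbx2 stood at 176 and 167 CPM in KO kidneys, 159.8 and 150.0 CPM in WT kidneys, 235 CPM in KO ureter and 259 CPM in WT ureter. Tbx3 stood at 77.1 and 76.1 CPM in KO kidneys, 84.9 and 71.1 CPM in WT kidneys, 174 CPM in KO ureter and 246 CPM in WT ureter. For both, the lower ureter was above the highest kidney. On the log2 scale Tbx2 differed by 0.60 (standard error 0.104, edgeR, adjusted p = 0.00472) and Tbx3 by 1.43 (standard error 0.134, adjusted p = 0.000389). With library size alone in place of TMM factors, the adjusted p of Tbx2 was 0.0841.

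Tshz3 encodes a zinc finger factor needed for ureteral smooth muscle, and Myocd (chr11:65173608-65269989) encodes myocardin, the coactivator of SRF that turns on contractile genes. Tshz3 stood at 20.4 and 12.2 CPM in KO kidneys, 12.7 and 18.9 CPM in WT kidneys, 31.7 CPM in KO ureter and 56.3 CPM in WT ureter. Myocd stood at 2.05 and 1.58 CPM in KO kidneys, 1.53 and 1.76 CPM in WT kidneys, 47.7 CPM in KO ureter and 33.0 CPM in WT ureter. Both ureters exceeded all kidneys for each gene. On the log2 scale the rise was 1.42 for Tshz3 (standard error 0.3001, edgeR, adjusted p = 0.0102) and 4.53 for Myocd (standard error 0.189, adjusted p = 2.04e-05). Tshz3 rested on the WT ureter: without that library its log2 fold change was 0.96 and its adjusted p 0.0870.

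Ptch1 and Gli1 (chr10:127329882-127341579), the receptor and the transcription factor that serve as pathway readouts, did not follow the mesenchymal genes. Ptch1 stood at 97.2 and 87.3 CPM in KO kidneys, 96.2 and 94.8 CPM in WT kidneys, 81.9 CPM in KO ureter and 109 CPM in WT ureter. The WT ureter was above and the KO ureter below all 4 kidneys. Gli1 stood at 56.8 and 60.3 CPM in KO kidneys, 67.7 and 50.9 CPM in WT kidneys, 41.5 CPM in KO ureter and 54.4 CPM in WT ureter. Its WT ureter lay within the kidney range and its KO ureter below it. The log2 fold change was 0.01 for Ptch1 (95% interval -0.26 to 0.29, adjusted p = 0.939 in edgeR) and -0.30 for Gli1 (95% interval -0.68 to 0.07, adjusted p = 0.160).

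The call on Gli1 depended on the scaling. With library size alone, a choice made after the data were examined, the median over all genes moved from -0.08 to -0.36. Gli1 then had a log2 fold change of -0.59 and an adjusted p of 0.0361 in edgeR, and Ptch1 one of -0.27 and 0.161. With limma on the deposited FPKM, Gli1 had -0.56 and an adjusted p of 0.0350. Relative to the median of all genes, Gli1 differed by -0.23 with TMM factors. Of all calls, 47.4% were higher in ureter with TMM factors, 28.0% with library size alone and 28.4% with FPKM. Under both alternatives 5 of the 9 genes were higher and 1 was lower.

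Sox9 (chr11:112782210-112787757) encodes an SRY-related factor of progenitor mesenchyme, collecting duct tips and cartilage. It stood at 15.4 and 23.4 CPM in KO kidneys, 21.8 and 19.6 CPM in WT kidneys, 31.4 CPM in KO ureter and 21.9 CPM in WT ureter. The KO ureter was above all kidneys and the WT ureter within their range. The log2 fold change was 0.40 (95% interval -0.15 to 0.95, adjusted p = 0.199 in edgeR).

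**Figure D2:**
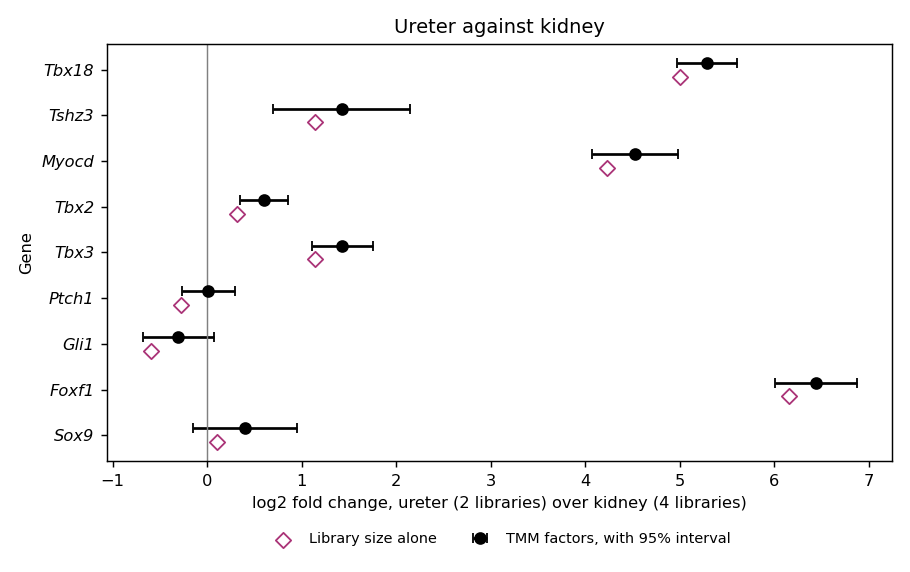
log2 fold change of ureter (2 libraries) over kidney (4 libraries) for the 9 genes; black circles use TMM factors and carry the 95% interval, open diamonds use library size alone. Intervals of Tbx18, Tshz3, Myocd, Tbx2, Tbx3 and Foxf1 exclude 0, and those of Ptch1, Gli1 and Sox9 include it.

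Library by library, both ureters exceeded all 4 kidneys for 6 of the 9 genes, and for none did both fall below. Among all genes tested, 28.1% had both ureters above all kidneys and 32.8% had both below. Within KO libraries alone, the log2 fold change was 0.96 for Tshz3 and 0.45 for Tbx2. Within WT libraries alone, these were 1.83 and 0.74. Each of these fits sets 1 ureter library against 2 kidney libraries, so its spread comes from the kidneys alone and the ureter is assumed to vary like them. When only the kidney libraries whose headers carry the same numbers as the ureter library were kept, 6 of the 9 genes were higher. Of all 16509 genes tested in that fit, 2540 were higher and 2301 lower. The labels do not say what those numbers mark.

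Levels were compared between genes on the deposited TPM, which accounts for transcript length. In kidney, Tbx2 was the most abundant with 97.8 ± 6.42 TPM (SD, n = 4), followed by Tbx3 with 35.2 ± 2.85 TPM, Gli1 with 34.3 ± 4.13 TPM and Ptch1 with 27.4 ± 1.82 TPM. Tbx3 and Gli1 overlapped over the 4 libraries, and so did Sox9 with 10.3 ± 1.67 TPM and Tshz3 with 6.85 ± 1.87 TPM. Tbx18 had 1.46 ± 0.0570 TPM. Myocd with 0.718 ± 0.102 TPM and Foxf1 with 0.485 ± 0.167 TPM overlapped at the bottom. In ureter, Tbx2 was again first, with 101 TPM in KO and 127 TPM in WT, and Tbx3 second, with 56.9 and 91.2 TPM. Tbx18 had 35.9 and 52.7 TPM and Foxf1 21.7 and 46.5 TPM. From Tbx18 down to Sox9, each gene's 2 ureter values overlapped those of the next gene in the order, although Tbx18 lay wholly above Gli1, Ptch1, Tshz3, Myocd and Sox9. Ptch1 and Gli1 both lay between 17.1 and 26.0 TPM there.

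Other genes of the pathway were read in the same comparison, starting with the ligands. Shh, the ligand made by urothelium, stood at 3.74 to 5.69 CPM in the kidneys, 84.6 CPM in KO ureter and 34.96 CPM in WT ureter (log2 fold change 3.50, adjusted p = 0.000159 in edgeR). Scube2, which helps release the ligand, rose with a log2 fold change of 5.71. Ihh, the ligand of tubule epithelium, went the other way. It stood at 10.5 to 19.1 CPM in kidneys and was listed at 0 in both ureters, at least 148-fold lower against a floor of 3 counts in a ureter library. Disp1, the exporter, fell by 0.89 on the log2 scale. Dhh and Hhat did not pass, with 0.94 and -0.30, so 2 of 6 ligand and release genes were higher and 2 lower. Hhat also passed with library size alone, at -0.59.

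Reception and transduction genes had small differences. Of 10 genes, 2 were higher in ureter (Gli2 by 0.55 and Cdon by 0.47 on the log2 scale) and 3 were lower, namely Smo by -0.45, Kif7 by -0.52 and Gpr161 by -0.65. The median of the 10 was -0.02. Boc, Gas1, Sufu, Gli3 and Spop did not pass. The list had, with library size alone, 0 higher and 5 lower genes and a median of -0.31, so Gli2 and Cdon passed with TMM factors and not with library size alone. Boc and Spop changed sign under that scaling and with limma on FPKM.

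**Figure D3:**
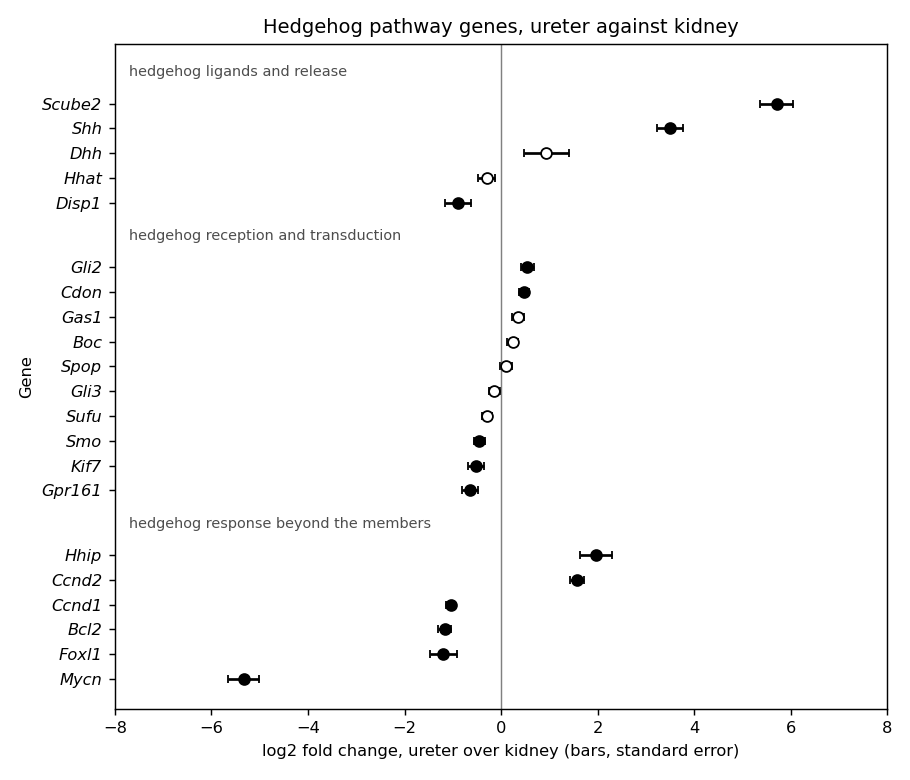
log2 fold change of ureter over kidney, with standard error bars, for hedgehog ligand and release, reception and transduction, and response genes that were tested and not at 0 in ureter; filled circles passed an adjusted p under 0.05 in edgeR. Changes of the transduction genes stay between -0.65 and 0.55, while Scube2 reaches 5.71 and Mycn -5.33.

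Other hedgehog response genes were split. Hhip, a membrane protein that binds and restrains the ligand, rose by 1.97 on the log2 scale, and the cyclin gene Ccnd2 by 1.58. Foxl1 fell by 1.19, Bcl2 by 1.17, Ccnd1 by 1.05 and Mycn fell by 5.33. Thus 2 of the 6 tested were higher and 4 lower, with a median of -1.11, and these counts were equal with library size alone and with FPKM. Several of them have other inputs in kidney, where Mycn marks nephron progenitors. Foxf2, the paralog of Foxf1, was not tested, since it had 33 counts in WT ureter and 0 in the other 5 libraries.

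Regulators of the ureter wall from other pathways were also split, with 4 of 14 higher and 7 lower and a median of -0.85. Gata2 (log2 fold change 2.75), Gata6 (2.08), Wnt7b (1.40) and Dlg1 (0.39) were higher. Wnt9b (-7.47), Eya1 (-6.02), Aldh1a3 (-3.29), Lef1 (-2.92), Aldh1a2 (-2.54), Axin2 (-2.42) and Rarb (-1.35) were lower. Lef1 and Axin2 are targets of Wnt signals, and the Aldh1a genes make retinoic acid. Eya1 was also on the list of nephron progenitor markers used here. Wnt9b stood at 25.2 to 38.3 CPM in kidneys, with 0 counts in KO ureter and 16 in WT ureter. The part of kidney cell types in these differences was not tested. Dlg1 no longer passed with library size alone, and Bmp4, the signal that drives smooth muscle, passed at -0.62, against -0.34 and an adjusted p of 0.158 with TMM factors. Tcf21 and Rara did not pass under either scaling, and Rara changed sign.

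Among partners of myocardin and genes it turns on, 13 of 16 were higher and 0 lower, with a median of 2.82. The largest were Actg2 (log2 fold change 7.23), Cnn1 (5.51) and Myh11 (5.45), which encode an actin, calponin and the smooth muscle myosin heavy chain. Srf and the related coactivators Mkl1 and Mkl2 did not pass, with 0.09, 0.10 and 0.42. Smtn passed with TMM factors and did not with library size alone.

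The relatives of the 9 genes were also read. Of 14 other T-box genes 9 were tested. Tbx4 (log2 fold change 4.68) and Tbx1 (3.04) were higher, and Mga (-0.39) was lower. Tbx10, Tbx15 and Tbr1 were listed at 0 in both ureters and were at least 14.1-fold, 3.70-fold and 2.83-fold lower there. Apart from Mga none of the 14 exceeded 2.91 CPM in any library. Of 8 Teashirt and forkhead genes, Foxq1 (3.54) and Foxp1 (1.07) were higher, and Foxd2 (-2.34), Foxc1 (-1.84), Foxc2 (-1.83) and Tshz1 (-0.52) lower. Foxp1 did not pass with library size alone (0.78, adjusted p = 0.0898 in edgeR) or with limma on FPKM (0.79, adjusted p = 0.0639). Tshz2 did not pass. Of 11 genes that act with SOX9 or build cartilage matrix, Sox10 (4.07) and Col9a1 (1.20) were higher and Col2a1 (-5.13), Col11a2 (-2.60), Sox6 (-1.64) and Sox5 (-1.58) lower, with a median of -0.74. Sox10 marks Schwann cells rather than cartilage.

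Genotype made no detectable difference to the 9 genes in kidney. None passed edgeR's quasi-likelihood test between 2 KO and 2 WT libraries, and all 9 adjusted p-values were 0.9999, as for nearly all of the 16481 genes tested, of which 0% were higher and 0.0121% lower. Unadjusted p-values of the 9 ran from 0.171 for Tbx2 to 0.976 for Tbx18. At an unadjusted p under 0.05, 131 of all genes were higher and 96 lower, and DESeq2's Wald test called 25 and 19, none of them among the 9. The median log2 fold change was -0.02 over the 9 genes and -0.0041 over all. Without KO replicate 1, the library that differed in sex, none of the 9 passed either.

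Log2 fold changes in kidney were 0.01 for Tbx18 (95% interval -0.70 to 0.72), 0.04 for Tshz3 (-0.70 to 0.79) and 0.15 for Myocd (-0.81 to 1.10). They were 0.15 for Tbx2 (-0.09 to 0.39) and -0.02 for Tbx3 (-0.33 to 0.29). The pathway genes had -0.05 for Ptch1 (-0.31 to 0.21) and -0.02 for Gli1 (-0.42 to 0.39). Intervals were thus narrow enough to leave out a doubling or halving for Tbx2, Tbx3, Ptch1 and Gli1, and also for Tbx18, Tshz3 and Sox9 (-0.09, interval -0.65 to 0.46). They were too wide to do so for Myocd and for Foxf1 (-0.75, interval -2.32 to 0.82), which rested on 23 to 56 counts a library.

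KO and WT kidneys did not overlap for 2 of the 9 genes. Both KO values of Tbx2 were above both WT values, and both KO values of Foxf1 were below. Among all genes tested, 12.8% had both KO libraries above and 13.5% both below. For the other 7 genes the genotypes overlapped. Tshz3 varied most between replicates of one genotype, with 20.4 and 12.2 CPM in KO and 12.7 and 18.9 CPM in WT. KO replicate 1 and WT replicate 2 were the higher libraries for it.

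The ureter had 1 library of each genotype, so KO and WT ureters have no replicates of their own and their values are given as a description. The KO ureter was below the WT ureter for 7 of the 9 genes and above it for Myocd and Sox9. None passed a ratio of 2, against 4.44% of 16117 genes with a higher and 5.78% with a lower value in KO. The median log2 ratio of KO over WT was -0.39 over the 9 genes and -0.02 over all genes, of which 51.8% were lower. These medians were, with library size alone, -0.58 and -0.20.

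Foxf1 had the largest difference, with a KO value at 53.4% of WT (log2 ratio -0.90, counting interval -1.02 to -0.81). Tshz3 was at 56.6% of WT (-0.82, -0.94 to -0.72) and Tbx3 at 70.5% (-0.50, -0.55 to -0.46). These intervals cover counting error only and say nothing on variation between mice. Ptch1 was at 75.1% (-0.41), Gli1 at 76.2% (-0.39), Tbx18 at 77.6% (-0.37) and Tbx2 at 90.6% (-0.14). Myocd was at 143% of WT (0.52, 0.42 to 0.63) and Sox9 at 141% (0.50, 0.38 to 0.64). With library size alone Foxf1 (46.8%) and Tshz3 (49.7%) passed a ratio of 2, and none of the 9 changed direction.

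**Figure D4:**
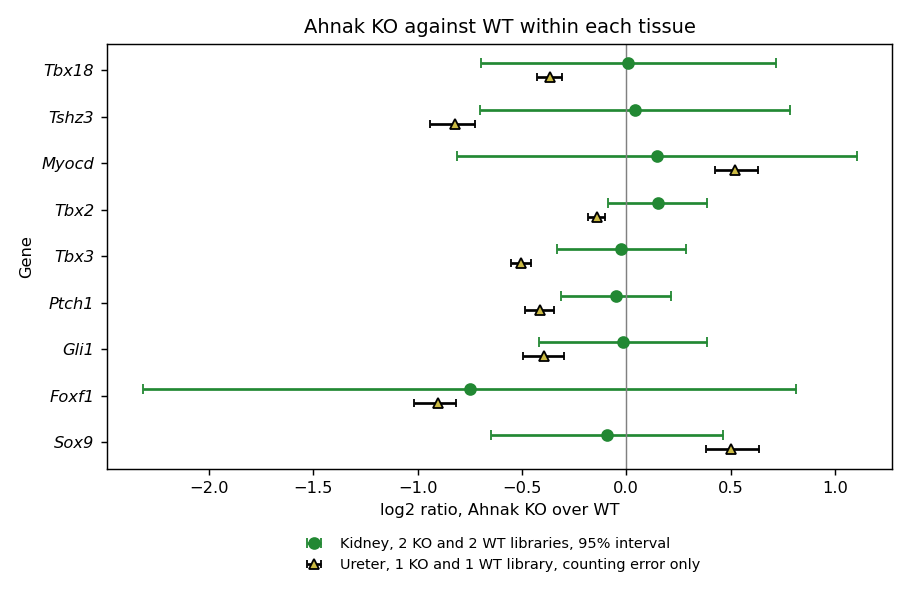
log2 ratio of Ahnak KO over WT for the 9 genes; green circles are kidney (2 libraries a genotype) with 95% intervals, yellow triangles are ureter (1 library a genotype) with intervals for counting error only. Kidney intervals all include 0, and ureter ratios are below 0 for 7 genes and above 0 for Myocd and Sox9.

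In the ureter pair Shh was higher in KO, at a log2 ratio of 1.26 (1.07 with library size alone), while Ptch1 and Gli1 were lower. Disp1 (0.92) and Hhat (0.11) were also higher in KO and Dhh (-0.56) and Scube2 (-0.63) lower. Of 7 response genes beyond the 9, Foxf2 (-1.09), Foxl1 (-0.90), Hhip (-0.41) and Ccnd1 (-0.11) were lower, and Mycn (0.56), Bcl2 (0.13) and Ccnd2 (0.06) were higher, with a median of -0.11. Of the 10 reception and transduction genes 5 were lower and 5 higher. Scaled by library size alone, 6 of the 7 and 8 of the 10 were lower, as were 67.7% of all genes. Among the ureter wall regulators 12 of 14 were lower in KO, with a median of -0.19 and none past a ratio of 2. Of the partners and targets of myocardin, 13 of 16 were lower, with a median of -0.29, although Myocd itself was higher. Myh11, at 0.23, was among the 3 that were higher.

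Markers of other cell types also differed between the ureter libraries. Summed over 8 urothelial genes the KO ureter had 7832 CPM and the WT ureter 6950 CPM, and over 7 smooth muscle genes 6857 and 7654 CPM. The urothelial direction held with TMM factors, where 6 of 8 genes were higher in KO, and not with library size alone, where 5 of 8 were lower. Of 9 striated muscle genes all were lower in KO, 5 past a ratio of 2, with sums of 165 and 396 CPM and kidneys at 6.25 to 8.20 CPM. The largest values in KO and WT ureter were those of Actc1 (49.8 and 203 CPM), Ckm (75.6 and 88.5 CPM) and Acta1 (24.9 and 61.5 CPM). Mb had 0 and 29 counts and Myog 0 and 6 counts. The paper lists Actc1 and Acta1 among the lowered muscle genes of the KO ureter. Which cells made these transcripts was not tested. Red blood cell genes summed to 665 and 1401 CPM, of 6 genes 4 lower and 2 higher past a ratio of 2. Paired globin genes went opposite ways between KO and WT ureter. Hba-a1 stood at 482 and 87.8 CPM and Hba-a2 at 0.269 and 527 CPM. Hbb-bt stood at 173 and 1.28 CPM and Hbb-bs at 0.0336 and 763 CPM. How reads were assigned among globin genes was not tested. Renal stroma genes summed to 369 and 418 CPM, podocyte genes to 138 and 108 CPM, nephron progenitor genes to 85.6 and 101 CPM and endothelial genes to 611 and 633 CPM. In kidneys the smooth muscle sum was 552 to 664 CPM, the podocyte sum 741 to 873 CPM and the kidney tubule sum 1640 to 1877 CPM. Adrenal cortex genes reached 8.24 and 5.13 CPM, with 3 of 6 at 0 in both ureters, and gonad genes 7.60 and 4.62 CPM, with 6 of 8 at 0. Cartilage genes summed to 37.3 and 41.6 CPM. The part of these differences in the values of the 9 genes was not tested.

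The genotype difference in ureter was tested against that in kidney with an interaction term, in which the single ureter libraries were assumed to vary like the kidney replicates. None of the 9 genes passed in edgeR's quasi-likelihood test, where 0.0533% of 16873 genes were higher and 0.0593% lower. The log2 difference was -0.47 for Tbx3 (standard error 0.213) and -0.15 for Foxf1 (standard error 0.354). Tshz3 had the largest difference, -0.87 (95% interval -2.20 to 0.46, adjusted p = 0.569). The intervals of all 9 genes included 0. In the pathway lists no gene passed between the genotypes of kidney, and none passed the interaction.

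For each of the 9 genes, the genes with the most similar pattern were sought among 14586 genes with a mean of at least 1 CPM. The measure was the root mean square difference of log2(CPM + 0.5), centred on each gene's mean, over the 6 libraries, and all genes are compared over these same libraries, which differ in tissue, depth and genotype. Nearest to Tbx18 were Fcamr (0.105), Bglap2 (0.146) and Rhov (0.150), and nearest to Foxf1 were Mcpt4 (0.209), Cyp4f15 (0.276) and Tbx18 (0.309). Several of these were near 0 in kidneys, where Tbx18 was at 3.01 to 3.40 CPM. Kidney values were 0 to 0.0820 CPM for Fcamr and 0 to 0.140 CPM for Bglap2. They were 0 to 0.0984 CPM for Mcpt4 and 0 to 0.0281 CPM for Cyp4f15. At such values the added 0.5 CPM largely sets the logarithm. Foxf1 was at rank 32 for Tbx18. For the other 7 genes the nearest of the 9 was at rank 195 or further. Nearest to Myocd were Aldh1a7 (0.0560), Sp6 and S100b, and to Tshz3 Efs (0.0877), Nexn and Ttc38. S100b was also near 0 in kidneys, at 0.0674 to 0.231 CPM. Tbx3 was nearest to Zfp703 (0.0278), Lcp1 and Tpm1, and Tbx2 to Ica1 (0.0409), Ticam1 and Fxyd5. Ptch1 was nearest to Rbck1 (0.0263), Lyplal1 and Carm1, with Gli1 at rank 2693. Gli1 was nearest to Gas6 (0.0448), Smpd1 and Stard3, with Ptch1 at rank 1676. Sox9 was nearest to Tusc2 (0.0598), Fam207a and LOC100503496. With 6 libraries in 4 groups, such a list describes these libraries only.

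Antisense overlap was small for the rest of the 9 genes. In GENCODE M21, exons of Gli1 share bases on the opposite strand with Gm47200 (265 bases, 5.31%) and Arhgap9 (62 bases), those of Tbx3 with Tbx3os1 (115 bases, 1.74%) and those of Foxf1 with Gm27530 (98 bases, 4.06%). Tshz3, Myocd, Tbx2, Ptch1 and Sox9 had no such overlap.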

How the data were processed

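Gene-level values for 6 bulk libraries of PN1 mouse kidney and ureter were analysed. The authors deposited 1 table in which each library had an estimated count, given as whole numbers, together with FPKM (fragments scaled by transcript length and depth) and TPM (the same rescaled to an equal total in each library) computed by the authors. Submitters' processing notes name Trimmomatic 0.38, HISAT2 2.1.0, StringTie 1.3.4b and mm10, whereas the methods name other tools and a later build. Which tool set made the table, and whether counting used strand, is not given in the sources used here. Titles call the ureter samples a further kidney replicate, while tissue labels and column headers say ureter, and the latter were used.

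The 9 genes, the gene lists and the markers were chosen with earlier results of these data known. All 9 genes are given. From the lists, 2 genes are not reported here and are left out of the counts and medians. Genes of the hedgehog and ureter wall lists are named, and in the other lists up to 3 of the largest changes past the threshold in each direction; further names there were chosen after their values were seen. Of 24532 symbols 27 had been turned into dates and were restored, and 24462 rows matched RefSeq by gene number.

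Genes passing edgeR's filterByExpr were fitted with TMM factors and glmQLFit (edgeR 4.0.16, R 4.3.3) over all genes, with Benjamini-Hochberg adjustment at 0.05. Plain counts had been planned for; the estimated counts were tested without further rounding. Ureter against kidney had a genotype term, kidney KO against WT used 4 libraries without a covariate, and the interaction used all 6. Standard errors were derived from the fold change and the F statistic and are approximate, as are the 95% intervals. The ureter ratio used log2(CPM + 0.5), with TMM factors of the 2 ureters alone, for genes with at least 10 counts in either, and its intervals cover counting error only. DESeq2 1.42.0, limma 3.58.1 on log2(FPKM + 1), other filters and scalings, omitted libraries and a replicate block were tried. The edgeR fits of ureter against kidney, kidney KO against WT and the interaction were also run on simulated counts. Other steps were not. The labels do not say whether replicate numbers pair KO and WT kidneys, and the main fits did not use them.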

Additional observations from a re-analysis of the deposited data

Results flagged for a closer look

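For Tbx2 the KO values lay on opposite sides of WT in the 2 tissues. Both KO kidneys (176 and 167 CPM) were above both WT kidneys (159.8 and 150.0 CPM), and the KO ureter (235 CPM) was below the WT ureter (259 CPM). The genotype difference in ureter minus that in kidney was -0.287 on the log2 scale, and edgeR's quasi-likelihood test of it gave an adjusted p of 0.572, so it did not pass.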

How the results depend on the processing

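The ureter had 1 library a genotype and the kidney 2, so a genotype difference in ureter had no replicate check, and Foxf1, Myocd and Tbx18 rested on at most 222 counts in each kidney library. Library sex and the ribosomal share of the KO ureter were not balanced. Ureter against kidney: Tbx18, Myocd, Tbx3, Foxf1 and Tshz3 passed with DESeq2, with DESeq2 size factors, with both filters, with limma on FPKM and with library size alone. Genes called lower numbered 3992, and 6360 with limma on FPKM, where 1 of the 9 (Gli1) was lower and Ptch1 was at -0.26. With library size alone 2371 genes were higher and 6108 lower, again with 1 of the 9 (Gli1) lower and Ptch1 at -0.27. Within KO libraries Ptch1 was at -0.17, and omitting 1 library moved it from -0.18 to 0.19. With the kidneys whose headers carry the ureter's numbers, 2301 genes were lower.

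Kidney KO against WT: 0 genes were higher and 2 lower, against 25 and 19 with DESeq2, 1 lower with at least 10 counts in every library, 0 lower with limma on FPKM and 0 lower with all 6 libraries in one fit. A replicate block gave 0 higher and 0 lower genes. Across genes, same-numbered libraries did not deviate together (correlation -0.193 over 16481 genes). With 2 libraries a genotype, this cannot show whether the numbers pair libraries. A crossed replicate block gave 1 lower gene. Omitting 1 library gave 1 to 24 genes higher and 2 to 63 lower, the most without KO kidney replicate 2 (24 and 63) and, next, without KO kidney replicate 1 (22 and 24). None of the 9 genes passed in any of these. Their log2 fold changes then ran from -0.0894 to 0.0970 for Tbx18, -0.37 to 0.36 for Tshz3, -0.0484 to 0.31 for Myocd, -0.15 to 0.11 for Tbx3, -0.12 to 0.0208 for Ptch1, -0.21 to 0.20 for Gli1 and -0.43 to 0.18 for Sox9. Tbx18 was at -0.0044 with limma on FPKM.

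Genotype difference between tissues: 9 genes were higher and 10 lower, against 201 and 283 with DESeq2, and 2 to 145 and 2 to 113 when 1 kidney library was omitted, the most without KO kidney replicate 2. None of the 9 genes passed. KO against WT in ureter: 715 genes were higher and 931 lower past a ratio of 2, against 1137 and 1638 with a pseudocount of 0.1 and 334 higher with FPKM. Of the 9 genes 0 were lower past that ratio, against 2 with library size alone and 1 with FPKM. The cause was not tested for any of these.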
